A study of Homo sapiens with 12 samples.

Results

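The genes described here are the G1 cyclins and the brakes of the cell cycle: cyclin D1 (CCND1), cyclin D3 (CCND3), the kinases CDK4 and CDK6 that D cyclins activate, cyclin G2 (CCNG2), and the kinase inhibitors CDKN1A, CDKN1B, CDKN1C, CDKN2C and CDKN2D. They were chosen by gene symbol, 10 in all. In the platform annotation 9 of the 10 had a probe, with 14 probes among 47322 on the array; CDKN2C had none in the annotation used here and was not analysed. Of the 14 probes 11 were detected on at least 3 of 12 arrays, and they measured 8 of the 10 genes among 11414 genes tested. The probe of CDK6 was detected on 0 arrays, with intensities of 83.97 to 119.7, so it has no change below. The second probes of CDKN1A and CDKN2D were also detected on 0 arrays and each of those genes was measured by its other probe. CDKN1C was detected on 11 arrays, including 2 of 3 with enzalutamide plus dexamethasone, and its values lie near the floor of detection.

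The arrays measured RNA of VCaP, an established human prostate cancer cell line that depends on androgen. Cultures in complete medium received, for 24 h and in biological triplicate, 0.1 nM dihydrotestosterone (DHT, an androgen), 10 µM enzalutamide plus 100 nM dexamethasone (a glucocorticoid; called the combination below), 10 µM enzalutamide alone (an antiandrogen), or DMSO vehicle. Every group came from 1 line in 1 medium, and no group received dexamethasone without enzalutamide. Illumina BeadChips gave 1 array per culture, 3 per group. The deposited detection p-value compares a probe's brightness with that of negative controls, and a low value means a brighter probe.

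Mean intensity per array was 271 to 344 on 11 arrays and 199 on vehicle replicate 3, which also detected the fewest probes (15852, against up to 18352); leaving it out changed no call among the 8 genes in any of the 6 comparisons. The arrays were also divided, 6 and 6, by the sign of the first component of probes that no array detected, with 12.5% of variance. The sample titles name no such division, and vehicle replicate 3 lay farthest out on the component. The first set holds vehicle replicates 1 and 2, DHT replicates 1 and 2, enzalutamide replicate 1 and combination replicate 1, and the second holds the others. Both sets hold all 4 groups, and values within each are given below as the first and second set. Enzalutamide and the combination have 1 array each in the first set, and DHT and vehicle have 1 each in the second, the latter being vehicle replicate 3. Values within a set therefore rest on 1 or 2 arrays per group and carry no test. Of 8 luminal prostate markers with a probe, 7 were detected on all arrays and the eighth, KLK3, on 9. For the glucocorticoid side, 0 arrays detected any probe of the glucocorticoid receptor gene NR3C1. Among markers of other cell types the basal keratins KRT5 and KRT14 were detected on 0 arrays, while VIM, CD68 and CHGA were detected on all 12. As a check of the treatments, FKBP5, a co-chaperone of steroid receptors induced by both hormones, was higher by 2.39 ± 0.10 with DHT than with vehicle, at a log2 change of -0.96 ± 0.10 with enzalutamide against vehicle, and higher by 1.36 ± 0.10 with the combination than with enzalutamide (log2, SE; limma adjusted p = 5.82e-08, 0.000408 and 2.13e-05). TSC22D3, a glucocorticoid-induced leucine zipper gene, was not called in any of these 3 comparisons. Its log2 change was -0.14 ± 0.15 for the combination against enzalutamide (limma adjusted p = 0.761). The probe used for it was detected on 11 arrays at a mean log2 level of 5.27, near the floor of detection. Its other probes were detected on 0 or 1 arrays, so the lack of a call does not show that this gene did not respond.

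D cyclins bind CDK4 or CDK6, and the active kinases phosphorylate the retinoblastoma protein, which releases E2F factors and lets cells enter S phase. The INK4 inhibitors, to which CDKN2C and CDKN2D belong, bind CDK4 and CDK6 themselves, while the CIP/KIP inhibitors CDKN1A (p21), CDKN1B (p27) and CDKN1C (p57) bind cyclin-kinase complexes. Cyclin G2 is an unusual cyclin that accumulates in arrested cells and is a known target of FOXO factors. Androgen controls growth of prostate cancer cells, and CDKN1A is a known target of p53.

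The sequences before the transcript start of CCNG2, CDKN1A and CDK4 are shown because these genes had the largest called changes with DHT against vehicle, CDKN1A up and the other two down. The promoter table used here (RefSeq, GRCh38.p14) held a start for 8 of the 10 genes, 13 starts in all. CCND1 and CDKN1C were not among them, while CDK6 and CDKN2C, which have no measured change, were. The 250 bases before each were searched on both strands for AGAACA (the hexamer of steroid hormone response elements), GTAAACA (FOXO), GGGCGG (the GC box), TTTCGCGC and TTTGGCGC (E2F) and CACGTG (the E-box bound by MYC family proteins); capitals mark every match. The CCNG2 window is chr4:77156957-77157206 on the plus strand, that of CDKN1A is chr6:36678464-36678713 on the plus strand, and that of CDK4 is chr12:57752311-57752560 on the minus strand. All are printed 5′ to 3′ along the gene.
CCNG2: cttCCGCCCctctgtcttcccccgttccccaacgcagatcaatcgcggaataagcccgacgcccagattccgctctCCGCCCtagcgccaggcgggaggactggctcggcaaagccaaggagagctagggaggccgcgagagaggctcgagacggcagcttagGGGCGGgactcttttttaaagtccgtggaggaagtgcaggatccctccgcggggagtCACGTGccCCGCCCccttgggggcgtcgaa
CDKN1A: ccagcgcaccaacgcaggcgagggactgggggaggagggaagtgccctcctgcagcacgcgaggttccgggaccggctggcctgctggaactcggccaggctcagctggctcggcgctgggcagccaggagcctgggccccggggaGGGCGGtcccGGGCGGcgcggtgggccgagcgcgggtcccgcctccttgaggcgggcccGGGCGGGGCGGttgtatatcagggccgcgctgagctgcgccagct
CDK4: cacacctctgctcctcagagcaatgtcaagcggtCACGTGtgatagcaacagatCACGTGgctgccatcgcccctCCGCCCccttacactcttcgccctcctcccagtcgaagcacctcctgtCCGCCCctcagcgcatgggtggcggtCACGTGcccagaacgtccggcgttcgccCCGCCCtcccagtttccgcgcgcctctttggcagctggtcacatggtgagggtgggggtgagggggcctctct

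CCNG2 held 4 GC boxes and 1 E-box, whose first base lay 30 bases before the start. CDKN1A held 4 GC boxes, the last pair overlapping by 1 base, and no E-box. CDK4 held 3 GC boxes and 3 E-boxes, with first bases 216, 196 and 101 bases before the start. The GC box was present at all 8 genes with a start in the table (10 of 13 windows), where 42.6% of 35116 windows of the same length in RefSeq held it. The E-box was present at 3 of the 8 genes (CCNG2, CDK4 and CDKN2C), in 4 of 13 windows, beside 6.34% of all windows. AGAACA (12.4% of all windows), GTAAACA (2.98%), TTTCGCGC (0.439%) and TTTGGCGC (0.55%) were present in 0 of the 13 member windows. A match is a string of letters and not evidence of binding, and elements farther away were not searched.

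Levels are normalized log2 intensities, so a difference of 1 is a doubling, and a probe's level cannot be set against another gene's. Changes are log2 changes ± SE from limma (n = 3 arrays per group), and a gene is called where its p-value, adjusted over all 11414 genes by the Benjamini-Hochberg method, is under 0.05. DHT against vehicle, enzalutamide against vehicle and the combination against vehicle share the vehicle arrays, and other pairs share the enzalutamide or DHT arrays; DHT against vehicle and the combination against enzalutamide share none.

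**Figure D1:**
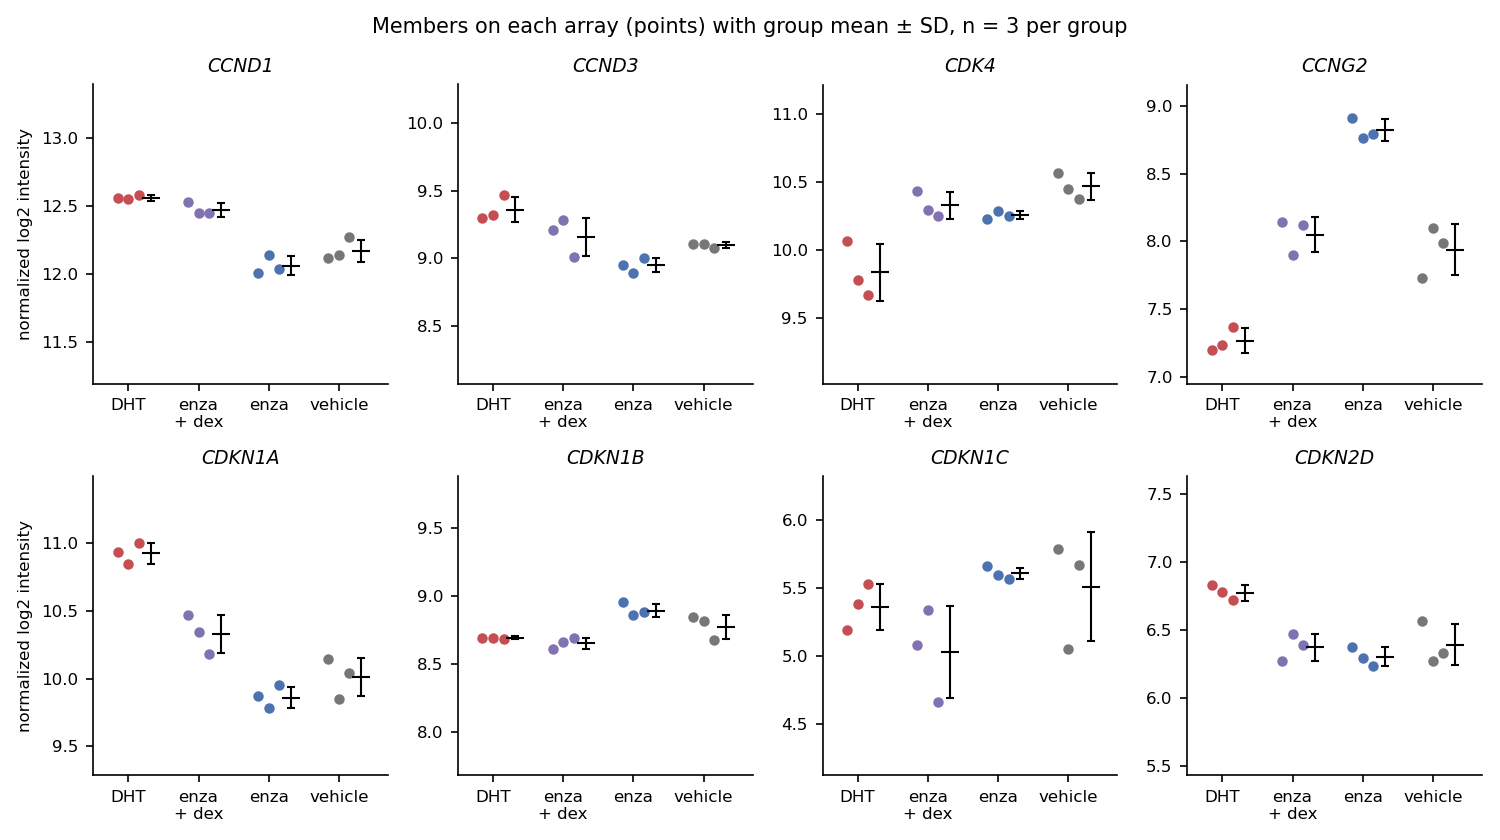
Normalized log2 intensity (vertical axis, the same height of log2 units in each panel) of the 8 tested genes on every array, by group; points are arrays and the bar beside them is the group mean ± SD (n = 3). CCNG2 lies lowest with DHT (7.20 to 7.37) and highest with enzalutamide (8.76 to 8.91), while CDKN1A lies highest with DHT (10.84 to 11).

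Among the D cyclins, CCND1 had 12.56, 12.55 and 12.58 on the DHT arrays, 12.53, 12.45 and 12.45 on the combination arrays, 12.01, 12.14 and 12.04 on the enzalutamide arrays and 12.12, 12.14 and 12.27 on the vehicle arrays. The DHT and combination arrays were all higher than the enzalutamide and vehicle arrays, and the enzalutamide and vehicle groups, next to each other in the order, shared values. CCND3 had 9.30, 9.32 and 9.47 with DHT, 9.21, 9.28 and 9.01 with the combination, 8.95, 8.89 and 9.0 with enzalutamide and 9.11, 9.11 and 9.08 with vehicle. Its DHT values were above all others, and the combination and vehicle groups overlapped.

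The catalytic partner CDK4 had 10.07, 9.78 and 9.67 with DHT, 10.44, 10.30 and 10.25 with the combination, 10.23, 10.29 and 10.25 with enzalutamide and 10.57, 10.45 and 10.38 with vehicle. All 3 DHT values lay below the other 9. The combination overlapped both the enzalutamide and the vehicle group. It averaged 9.84 ± 0.21 with DHT, 10.33 ± 0.10 with the combination, 10.26 ± 0.03 with enzalutamide and 10.47 ± 0.10 with vehicle (SD, n = 3).

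CCNG2, the cyclin of arrested cells, averaged 7.27 ± 0.09 with DHT, 8.05 ± 0.13 with the combination, 8.82 ± 0.08 with enzalutamide and 7.94 ± 0.19 with vehicle (SD, n = 3). Array by array it had 7.20, 7.24 and 7.37 with DHT, 8.14, 7.90 and 8.12 with the combination, 8.91, 8.76 and 8.79 with enzalutamide and 7.73, 8.10 and 7.99 with vehicle. The order was DHT, vehicle, combination, enzalutamide, and only the middle pair of groups overlapped.

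Among the CIP/KIP inhibitors, CDKN1A had 10.93, 10.84 and 11 with DHT, 10.47, 10.34 and 10.18 with the combination, 9.87, 9.78 and 9.95 with enzalutamide and 10.14, 9.85 and 10.04 with vehicle. The DHT arrays stood above the combination arrays and these above the other 6, with overlap between enzalutamide and vehicle. CDKN1B covered a narrow range: 8.69, 8.69 and 8.68 with DHT, 8.61, 8.66 and 8.69 with the combination, 8.95, 8.86 and 8.88 with enzalutamide and 8.84, 8.81 and 8.67 with vehicle. The enzalutamide arrays were above the other 9, and the remaining groups overlapped. CDKN1C had 5.19, 5.38 and 5.53 with DHT, 5.08, 5.34 and 4.66 with the combination, 5.66, 5.6 and 5.57 with enzalutamide and 5.79, 5.05 and 5.67 with vehicle, with an SD of 0.34 in the combination group and 0.40 in the vehicle group.

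The INK4 inhibitor CDKN2D had 6.83, 6.78 and 6.72 with DHT, 6.27, 6.47 and 6.39 with the combination, 6.37, 6.29 and 6.23 with enzalutamide and 6.56, 6.27 and 6.33 with vehicle. The DHT arrays were above the other 9, among which the 3 groups overlapped.

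With DHT against vehicle, the inhibitors CDKN1A and CDKN2D and cyclin D1 rose, while CCNG2 and CDK4 fell. CDKN1A rose by 0.91 ± 0.10 (1.88-fold, limma adjusted p = 8.82e-05), CCND1 by 0.39 ± 0.08 (1.31-fold, adjusted p = 0.00388) and CDKN2D by 0.39 ± 0.10 (1.31-fold, adjusted p = 0.0133). CCNG2 fell by 0.67 ± 0.11 (1.59-fold lower, adjusted p = 0.00114) and CDK4 fell by 0.63 ± 0.11 (1.54-fold lower, adjusted p = 0.00167). These are bulk RNA measurements, in which fewer cells holding a transcript and less of it per cell cannot be told apart. CCND3 was on the edge of the threshold, at 0.26 ± 0.09 (adjusted p = 0.0593), with DHT and vehicle arrays that did not overlap; it was called under 8 of 24 other ways of processing. CDKN1B (-0.08 ± 0.08) and CDKN1C (-0.14 ± 0.20) were not called.

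So 5 of 8 genes were called, 3 up and 2 down, where 21.7% of all genes tested were called in either direction, 11% up and 10.7% down. The median log2 change of the 8 was 0.09, against 0.01 over all genes. Groups did not overlap for 6 of the 8, and for 37.2% of all genes. Within the first and second set of arrays the change was 0.89 and 0.96 for CDKN1A, 0.43 and 0.32 for CCND1, 0.39 and 0.38 for CDKN2D, -0.69 and -0.62 for CCNG2 and -0.58 and -0.71 for CDK4. When each array was scaled on the median of its own detected probes, the median of all genes moved to 0.10. Calls were then 1061 up and 368 down, in place of 1259 up and 1217 down. CDKN1A and CDKN2D remained called, while CCND1, CCNG2 and CDK4 kept their direction without a call (limma adjusted p = 0.0628, 0.0626 and 0.0781). The CDKN2D call was lost without vehicle replicate 2 and when only the arrays compared were fitted (adjusted p up to 0.0552). Over the 24 alternatives its change lay between 0.2 and 0.49. Its probe was detected on all 12 arrays, at low intensities of 118.6 to 218.3.

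**Figure D2:**
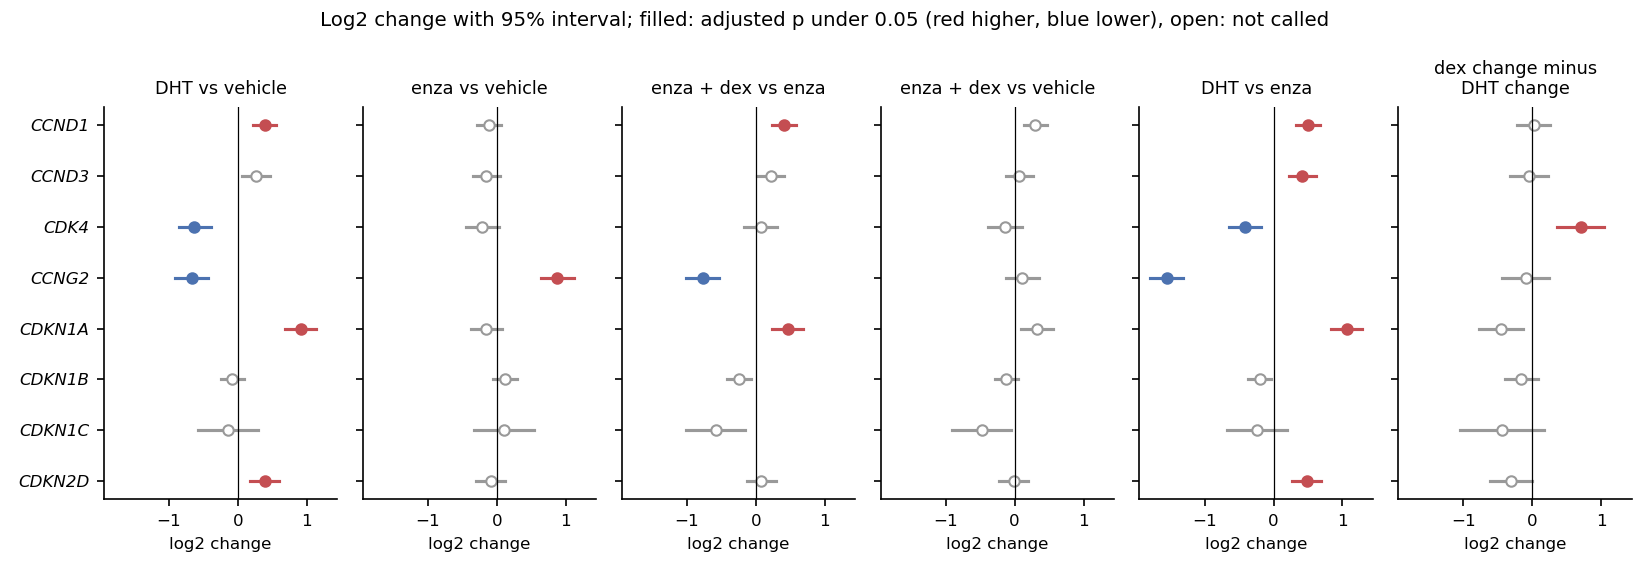
Log2 change (horizontal axis) with its 95% interval for the 8 genes in the 6 comparisons; filled points passed an adjusted p of 0.05, red higher and blue lower. The DHT against enzalutamide panel holds the most filled points (6), and the combination against vehicle panel holds 0.

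With enzalutamide against vehicle, CCNG2 was the member that changed: it rose by 0.88 ± 0.11 (1.84-fold, limma adjusted p = 0.00193), the ninth-largest rise of 11414 genes. The other 7 members were not called, with log2 changes between -0.21 (CDK4, adjusted p = 0.415) and 0.12 (CDKN1B, adjusted p = 0.516). That is 1 of 8 called, and 1.83% of all genes were called, 0.832% up and 0.999% down. The median of the 8 was -0.10, against 0.01 over all genes. Within the first and second set CCNG2 was higher by 1.0 and 0.79. Under median scaling the calls over all genes were 23 up and 14 down in place of 95 up and 114 down, and CCNG2 remained called.

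With dexamethasone added to enzalutamide, CCNG2 fell by 0.77 ± 0.11 (1.70-fold lower, limma adjusted p = 0.00265), and CCND1 and CDKN1A rose, by 0.41 ± 0.08 (1.33-fold, adjusted p = 0.0137) and 0.47 ± 0.10 (1.38-fold, adjusted p = 0.031). CDKN1C at -0.58 ± 0.20 (limma adjusted p = 0.17) and CDKN1B at -0.24 ± 0.08 (limma adjusted p = 0.144) were not called. CCND3, CDK4 and CDKN2D had log2 changes of 0.22, 0.07 and 0.08, without a call. In all, 3 of 8 genes were called, 2 up and 1 down, where 3.5% of all genes were called, 1.79% up and 1.72% down. The median of the 8 was 0.08, against 0 over all genes.

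The 2 rises are the less secure of these calls. Leaving out enzalutamide replicate 1, enzalutamide replicate 3 or combination replicate 1 left CCNG2 as the 1 call, and the CDKN1A call was also lost without enzalutamide replicate 2 or combination replicate 2; over all alternatives the adjusted p reached 0.208 for CCND1 and 0.126 for CDKN1A. The sizes held, at 0.38 to 0.46 for CCND1 and 0.40 to 0.55 for CDKN1A. Within the first and second set the change was 0.51 and 0.36 for CCND1, 0.60 and 0.40 for CDKN1A and -0.77 and -0.77 for CCNG2. Median scaling on each array's own detected probes left 0 of the 3 calls (CCNG2 adjusted p = 0.0527), and there calls over all genes were 80 up and 40 down in place of 204 up and 196 down.

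The combination against vehicle gave 0 calls among the 8 by limma, where 1.1% of all genes were called, 0.666% up and 0.429% down; 3 members had an unadjusted p under 0.05, as had 1340 of all 11414 genes (11.7%). CCND1 was higher by 0.30 ± 0.08 (limma adjusted p = 0.114) and CDKN1A by 0.32 ± 0.10 (limma adjusted p = 0.228), and CDKN1C had a log2 change of -0.48 ± 0.20 (limma adjusted p = 0.371). CCNG2 was at 0.11 ± 0.11 (95% interval -0.13 to 0.36, adjusted p = 0.758), with overlapping arrays. An interval of this width does not show that the levels were equal. Median log2 change was 0.03 for the 8 and 0.01 for all genes, and median scaling moved the median of all genes to 0.11, with 36 up and 5 down in place of 76 up and 49 down.

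Between DHT and enzalutamide, an androgen and an antiandrogen, 6 of the 8 changed. CDKN1A rose by 1.06 ± 0.10 (2.09-fold, limma adjusted p = 1.43e-05), CCND1 by 0.50 ± 0.08 (1.42-fold, adjusted p = 0.000513), CDKN2D by 0.48 ± 0.10 (1.39-fold, adjusted p = 0.00279) and CCND3 by 0.42 ± 0.09 (1.33-fold, adjusted p = 0.00464). CCNG2 fell by 1.55 ± 0.11 (2.93-fold lower, adjusted p = 1.31e-06) and CDK4 fell by 0.42 ± 0.11 (1.33-fold lower, adjusted p = 0.0138). CDKN1B had a log2 change of -0.20 ± 0.08, on the edge of the threshold (adjusted p = 0.0709). For comparison 29.2% of all genes were called, 14.6% up and 14.7% down, so calls were common here. The 2 groups were apart, without overlap, for all 8 members and for 45.1% of all genes. Within the first and second set CDK4 was at -0.30 and -0.60 and CCNG2 at -1.69 and -1.41. The CDK4 call was lost without DHT replicate 3 and under both forms of median scaling (adjusted p up to 0.203); calls over all genes were 1157 up and 768 down under median scaling on each array's own detected probes, in place of 1664 up and 1673 down.

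The change on adding dexamethasone to enzalutamide was set against the change on adding DHT to vehicle. They differed at CDK4, by 0.70 ± 0.16 (limma adjusted p = 0.0187): CDK4 had a log2 change of 0.07 with dexamethasone and fell by 0.63 with DHT. The difference was 0.79 and 0.71 within the first and second set, and under both forms of median scaling it was no longer called (adjusted p up to 0.251); calls over all genes on each array's own detected probes were 87 up and 131 down, in place of 412 up and 376 down. CDKN1A had a smaller change with dexamethasone than with DHT, by -0.45 ± 0.15, and CDKN2D by -0.31 ± 0.14, neither of them called (adjusted p = 0.0967 and 0.22). For CCNG2 the difference was -0.10 ± 0.16 (95% interval -0.44 to 0.24) and for CCND1 it was 0.02 ± 0.11 (-0.22 to 0.26). That makes 1 of 8 called, up, beside 6.9% of all genes, 3.61% up and 3.29% down.

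**Figure D3:**
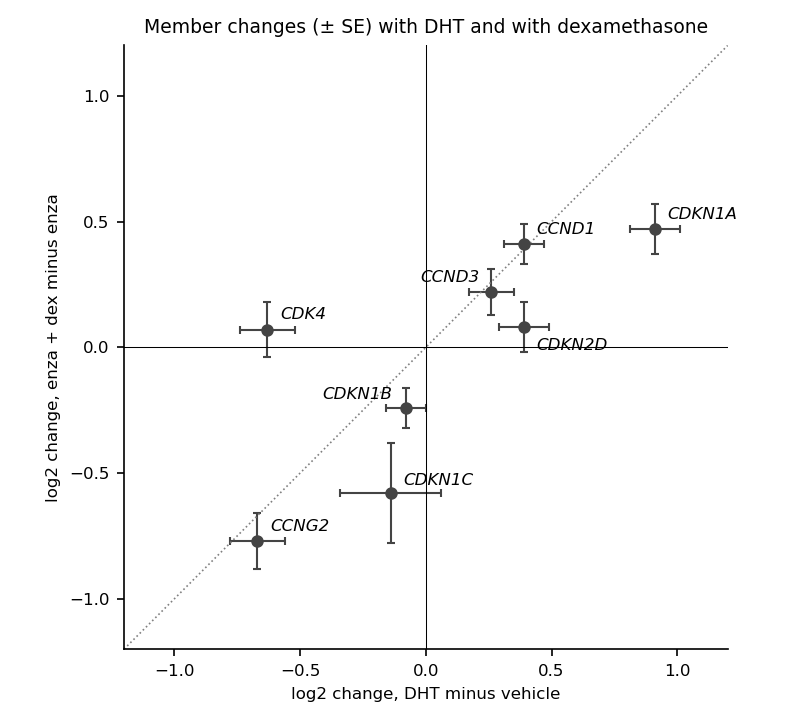
Log2 change with DHT against vehicle (horizontal axis) and with the combination against enzalutamide (vertical axis) for the 8 genes, with SE bars; the dotted line marks equal changes. CCNG2 lies in the lower left (-0.67 and -0.77) and CDK4 off the line (-0.63 and 0.07).

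CCNG2 was measured by 3 probes. With DHT against vehicle the probes gave -0.67 ± 0.11, -0.82 ± 0.14 and -1.09 ± 0.21, from the brightest to the dimmest. With enzalutamide against vehicle they gave 0.88 ± 0.11, 0.84 ± 0.14 and 0.35 ± 0.21, and with the combination against enzalutamide -0.77 ± 0.11, -0.79 ± 0.14 and -0.67 ± 0.21. The probes had 1 sign in each of these comparisons. In the combination against vehicle they did not, with 0.11 ± 0.11, 0.05 ± 0.14 and -0.32 ± 0.21, nor in the difference between the dexamethasone and DHT changes, with -0.10 ± 0.16, 0.03 ± 0.20 and 0.42 ± 0.29. The 2 probes of CDKN1B had the same sign in all 6 comparisons, for example -0.24 ± 0.08 and -0.19 ± 0.10 in the combination against enzalutamide.

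**Figure D4:**
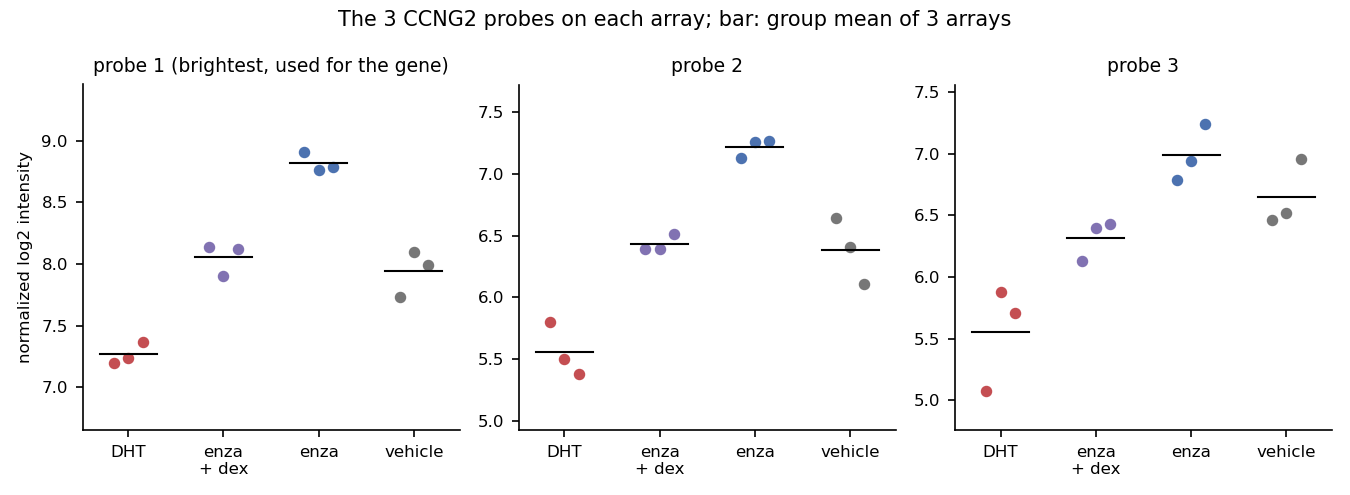
Normalized log2 intensity (vertical axis) of the 3 CCNG2 probes on every array by group, with the group mean as a bar; points are arrays. In each probe DHT is the lowest group and enzalutamide the highest, while the order of the combination and vehicle differs for the dimmest probe.

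The genes whose levels over the 12 arrays ran most like a member's were found by Pearson's r, as a description, since arrays share their treatment group. For CCNG2 these were SESN1, a stress-induced regulator of growth signalling (r = 0.968), PTPMT1, a mitochondrial phosphatase (r = 0.967), and LRRC31 (r = 0.967). SESN1 fell by 0.79 ± 0.09 with DHT and rose by 0.73 ± 0.09 with enzalutamide, against vehicle, and fell by 0.64 ± 0.09 with the combination against enzalutamide (limma adjusted p = 7.15e-05, 0.0013 and 0.00184). LRRC31 did the same with -0.74 ± 0.12, 1.02 ± 0.12 and -0.83 ± 0.12. For CDKN1A the nearest were EMC3, VMP1 and STX5 (r = 0.981 to 0.983), membrane and vesicle proteins; VMP1 rose by 0.79 ± 0.09 with DHT. For CCND1 they were RGS4, PDIA6 and CHPT1 (r = 0.967 to 0.97), and RGS4, a regulator of G-protein signalling, rose by 1.03 ± 0.10 with DHT and by 1.25 ± 0.10 with the combination against enzalutamide. For CDK4 they were PPP1R14B, LAD1 and CUEDC2 (r = 0.958 to 0.982), for CCND3 SLC26A6, GPN2 and C1orf122 (r = 0.954 to 0.981), and for CDKN2D UNC50, ATOSB and APOF (r = 0.957 to 0.979).

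The lists that follow are described by their counts and medians alone, to be read against the shares of all genes called: 11% up and 10.7% down with DHT, 0.832% up and 0.999% down with enzalutamide, 1.79% up and 1.72% down with the combination against enzalutamide. Of 29 tested partners at G1/S, 1 rose and 4 fell with DHT (median log2 change -0.02, against 0.01 over all genes), a share below that of all genes called. CDC25A, the phosphatase that activates CDK2, fell by 0.98 ± 0.12, SKP2, which marks CDKN1B for destruction, fell by 0.84 ± 0.09, and E2F2 fell by 0.76 ± 0.09 (limma adjusted p = 0.000129, 3.98e-05 and 0.000143). Cyclin A2 (CCNA2) rose by 0.36 ± 0.12 (adjusted p = 0.0456), a call kept in 12 of 24 alternatives. With enzalutamide 0 rose and 3 fell, among them CDC25A by 0.85 ± 0.12 and CDK2 by 0.54 ± 0.10 (adjusted p = 0.00376 and 0.0166). The CDK2 call was kept in 18 of 24 alternatives and lost without any 1 of the 3 enzalutamide arrays, and without enzalutamide replicate 3 the falls came to 1. With the combination against enzalutamide 2 rose and 0 fell, CDC25A by 0.50 ± 0.12 and E2F2 by 0.44 ± 0.09 (adjusted p = 0.0395 and 0.0227). The CDC25A call was kept in 12 of 24 alternatives and the E2F2 call in 18, and 0 partners were called without enzalutamide replicate 2, enzalutamide replicate 3 or combination replicate 2.

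Of 21 tested genes of DNA synthesis, 16 fell and 0 rose with DHT, with a median log2 change of -0.63, against 0.01 over all genes. MCM2 and MCM4, subunits of the replicative helicase, had log2 changes of -1.48 ± 0.09 and -1.35 ± 0.09 (limma adjusted p = 9.74e-07 and 1.07e-06). With enzalutamide 8 fell and 0 rose (median -0.38), among them CDC45, a helicase cofactor, by 0.78 ± 0.08 (adjusted p = 0.000366), and with the combination against enzalutamide 5 rose and 0 fell (median 0.21), CDC45 by 0.72 ± 0.08 (adjusted p = 0.000246). Under median scaling on each array's own detected probes these counts were 10, 0 and 3. In the combination against vehicle 0 of the 21 rose and 0 fell (median -0.09, against 0.01 over all genes), where 1.1% of all genes were called. The dexamethasone change was called above the DHT change for 16 of the 21, MCM4 by 1.84 ± 0.12 (limma adjusted p = 1.09e-05), and below it for 0. Over all genes 3.61% were called up and 3.29% down in that comparison. Without vehicle replicate 3, 16 of 20 fell with DHT and 6 of 20 with enzalutamide; leaving out any 1 array gave 14 to 16 falls with DHT and 4 to 7 with enzalutamide. Of 17 mitosis genes, 3 rose and 0 fell with DHT, where 11% of all genes were called up and 10.7% down. The median log2 change of the 17 was 0.2, against 0.01 over all genes. CENPE rose by 0.42 ± 0.11, KIF20A by 0.34 ± 0.10 and CDK1 by 0.28 ± 0.09 (limma adjusted p = 0.0178, 0.0263 and 0.047). These calls were kept in 21, 19 and 11 of 24 alternatives; 0 mitosis genes rose without vehicle replicate 2 or DHT replicate 3, and 1 without DHT replicate 2.

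**Figure D5:**
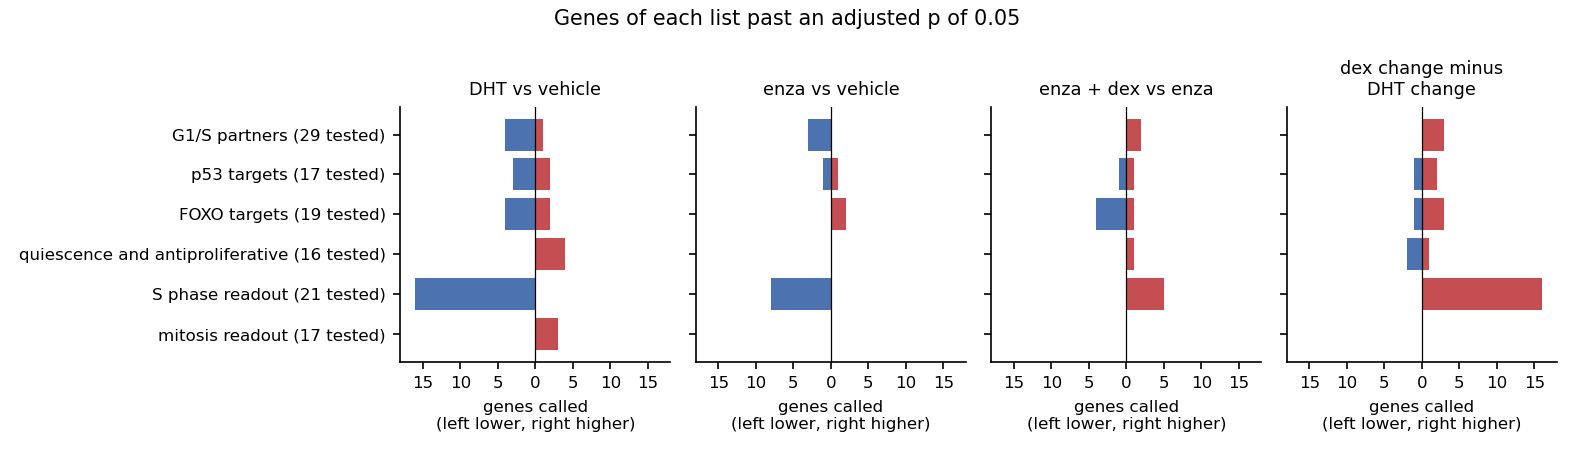
Numbers of genes called (horizontal axis, lower to the left in blue and higher to the right in red) in 6 gene lists, for 4 comparisons. The DNA synthesis list (S phase readout) has 16 genes lower with DHT and 16 in which the dexamethasone change exceeded the DHT change.

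Genes known as FOXO targets, the class to which CCNG2 belongs, were listed together with the factors FOXO1, FOXO3 and FOXO4 themselves. They were called in both directions with DHT: of 19 tested, 2 rose and 4 fell (median -0.14). The falls included SESN1 and TRIB1, a pseudokinase (-1.24 ± 0.08, limma adjusted p = 8.64e-07), and the rises were GADD45B and KLF6 (0.63 ± 0.16 and 0.60 ± 0.11). With enzalutamide 2 rose (SESN1, and TRIB1 by 0.47 ± 0.08, adjusted p = 0.00989) and 0 fell, with a median of 0.21, against 0.01 over all genes. With the combination against enzalutamide 1 rose and 4 fell (median -0.14). BCL6, a transcriptional repressor, was the rise, at 0.69 ± 0.08 (adjusted p = 0.000453). Leaving out any 1 array gave 1 to 3 falls with the combination, with 1 without enzalutamide replicate 2 or combination replicate 3. Without vehicle replicate 3, GADD45B was not called with DHT, and without enzalutamide replicate 1 there was 1 rise with enzalutamide. Under median scaling the 4 falls with the combination became 0, and the DHT counts were 2 up and 2 down with a median of 0.01. Between DHT and enzalutamide 1 rose and 10 fell (median -0.31), where 14.6% of all genes were called up and 14.7% down. Leaving out any 1 array gave 7 to 10 falls there.

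Of 17 tested p53 targets other than CDKN1A, 2 rose and 3 fell with DHT (median -0.04), where 21.7% of all genes were called in either direction. PPM1D rose by 0.39 ± 0.10 (limma adjusted p = 0.0137) and PLK2 fell by 0.71 ± 0.20 (adjusted p = 0.0278), calls kept in 22 and 20 of 24 alternatives. The other rise, TP53I3 at 0.32 ± 0.10 (adjusted p = 0.0495), was called in 2 of 23 alternatives. Without vehicle replicate 3 or DHT replicate 3, 0 rose and 2 fell, and falls came to 1 without vehicle replicate 1, DHT replicate 1 or vehicle replicate 2. Among 16 tested genes of quiescence and of antiproliferative factors, 4 rose and 0 fell with DHT. The median log2 change of the 16 was 0.02, against 0.01 over all genes. HES1 rose by 0.93 ± 0.21, KLF4 by 0.81 ± 0.10, PDCD4 by 0.44 ± 0.07 and TOB1 by 0.33 ± 0.08 (limma adjusted p = 0.00869, 0.000157, 0.00107 and 0.0138). With the combination against enzalutamide 1 rose, KLF9, a steroid-induced repressor, by 1.0 ± 0.11 (adjusted p = 0.000362). Some genes, SESN1 among them, stand in more than 1 list, so the counts are not independent.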

How the data were processed

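RNA of 12 VCaP cultures was hybridized to Illumina BeadChips. The deposited intensity of a probe is the mean over its beads as written by GenomeStudio (version not stated), per the submitters' processing notes, and is not normalized between arrays. The deposited detection p-value compares a probe with negative controls, the deposited bead counts (15.8 to 24.1 beads per member probe on average) were used to describe precision, and the deposited bead standard errors (a signal column of the authors' table) were not used. A second table of intensities processed by the authors, with 29.4% to 29.5% of values below 0, served as an alternative, with 42.5 added before log2.

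Here intensities were corrected and quantile-normalized with neqc of limma 3.58.1 in R 4.3.3 (offset 16), the background being estimated from the detection p-values. The filter kept 20265 of 47322 probes, those with a detection p under 0.05 on 3 or more arrays. The platform annotation gave 1 symbol for 30112 probes, several for 8, and 17202 probes were not listed. A gene was represented by its brightest kept probe. Group means were estimated over all kept probes with lmFit and eBayes (8 degrees of freedom from the residuals, 3.71 from the prior), two-sided, with Benjamini-Hochberg adjustment over 11414 genes. The rule for named genes took all members, the 3 genes nearest to each called member by correlation, and up to 4 genes per list and comparison of largest change with groups that did not overlap; the text prints part of these.

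The members, the lists and the tests were chosen with earlier results of these data known. The fit was first made on the gene probes alone, which called CCND3 with DHT against vehicle and CDKN1B with DHT against enzalutamide. It was then replaced by the fit over all kept probes, after those calls had been seen, because the first disagreed with the earlier analysis of these data in its counts over all genes (2683 calls for DHT against vehicle in place of 2476); the first is kept as an alternative. The division of arrays into sets used ranks within an array of 19189 probes no array detected (first component, 12.5% of variance); logarithms were tried first and set vehicle replicate 3 alone apart, and ranks were used because they give the division known from the earlier analysis. The model was tested on simulated data, where it recovered fewer of the changed genes than a first pass mark, set by guess, asked for; that mark was replaced, after its outcome was seen, by marks on effect size, sign and false calls. An exact permutation test of a single gene, 3 arrays a side, could reach no p smaller than 0.1.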

Additional observations from a re-analysis of the deposited data

How the results depend on the processing

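Besides the setting used, 24 alternatives were run: 10 on filters, background, scaling, probe averaging, blocks, the arrays fitted and the variance model, 12 that leave out 1 array each, and 2 added after seeing the data (median scaling over the kept probes, and the model fitted on the gene probes alone). Of 384 alternative values for the 16 called member changes, 361 kept direction and call, 23 kept direction without a call and 0 reversed. These include runs that leave out an array of neither group compared, which bear little on that change. For the difference between the dexamethasone and DHT changes, fitting only the arrays compared repeats the setting used. Of 768 for the 32 changes not called, 732 stayed so, 19 passed the threshold and 17 had the other sign. Calls among the members with median scaling on each array's own detected probes were 2 for DHT against vehicle, 0 for the combination against enzalutamide and 0 for the difference between the dexamethasone and DHT changes, and median scaling over the kept probes also gave 0 for that difference. Fitting only the arrays compared gave 1 call for the combination against enzalutamide, and leaving out 1 array gave 1 to 3. No background correction, and trend and robust empirical Bayes, each gave 2 calls for the combination against vehicle (CCND1 and CDKN1A) and 2 for the difference (CDK4 and CDKN1A). The cause of these shifts was not tested. The sign turned at small changes. With median scaling it did so for the combination against vehicle at CDK4 (0.04), CDKN1B (0.05) and CDKN2D (0.10), and for CDKN1B with DHT against vehicle (0.10, and 0.00 over the kept probes). With the mean over a gene's probes it did so for CCNG2 in the combination against vehicle (-0.06) and in the difference (0.12). Leaving out 1 array put the difference between -0.03 and 0.06 for CCND1, between -0.10 and 0.03 for CCND3 and between -0.18 and 0.01 for CCNG2. It put CDKN1C between -0.37 and 0.00 with DHT against vehicle and between -0.12 and 0.25 with enzalutamide against vehicle, and CDKN2D between -0.07 and 0.07 in the combination against vehicle. With the replicate number as a block the member calls were 5, 1, 3, 0, 6 and 1 in the order of the comparisons, as without it, and 2582 genes were called with DHT against vehicle. Deviations of same-numbered arrays correlated at -0.08 to 0.22 (11 of 18 pairs over 0.1), so not every pair passed 0.1 and the numbers were not used as pairs. All 6 replicate 1 pairs lay at 0.12 to 0.22, different-numbered arrays had a median of -0.07, and 11 of 12 arrays correlated best with one of their own number, a hint from the data, not the design, of a shared replicate effect. The number of arrays and, for CDKN1C, a signal near background limit these results.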
